A study of Mus musculus with 30 samples.

Results

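The lungs of mice kept for 6 d in 10% oxygen were compared with those of a group titled Norm, to describe which transcripts of whole lung differed once low oxygen had lasted long enough for the vessel wall to be rebuilt. Total RNA of whole lung was measured on 3 types of Affymetrix MG-U74v2 oligonucleotide array, A, B and C, which carry different probe sets. The comparison used 11 of the 30 arrays of the series, 6 from the 6 d group and 5 from Norm. The 6 d animals had been put in a hypoxic chamber at 10% oxygen to give them pulmonary hypertension. The Norm titles name no oxygen level, and the description attached to Norm speaks of a rejection, so the titles alone defined the group. Samples 1a and 1b make up each group. The labels give neither strain, sex, age nor the number of animals behind a sample, so p-values reflect how far 1a and 1b lie apart, and that spread may be technical. A Norm 1a array titled for type A stands in the table of the B arrays, where its Spearman correlations with the others ran from -0.00277 to 0.00963. It was left out, and Norm on type A is therefore 1 array. Groups kept in the same 10% oxygen for 2 d and 4 d, with 2 samples each, served to place the 6 d values in time, and a 10 h group entered the shared fit. The 2 d and 6 d arrays are numbered consecutively in the series, apart from the Norm, 10 h and 4 d arrays. A difference of 6 d from Norm or from 4 d therefore coincides with that split. Whether the arrays were processed apart is not in the labels, and its part was not tested.

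Small pulmonary arteries constrict in low oxygen, and when the exposure lasts, smooth muscle grows out along vessels that normally lack it, the wall takes up elastin and collagen, and the right ventricle works against a higher resistance. Fibroblasts, pericytes and endothelial cells divide during this remodelling phase, and the blood gains red cells. Alveolar type 2 cells, which make surfactant and renew the alveolar lining, and the ciliated and club cells of the airway are exposed to the same gas. In bulk lung, fewer cells of a type and less RNA per cell cannot be told apart.

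Of 36899 probe sets, 25801 were bright enough to test and stood for 13039 genes. Values are deposited intensities per array, and a difference is the mean log2 intensity at 6 d minus that of Norm, ± the standard error (SE) of the limma fit, with n = 2 arrays a group and 1 Norm array on type A. Intensities under the floor of their array type (236 on A, 297 on B, 201 on C) were raised to it before the fit. Where such an intensity is printed, a difference that uses it rests on the floor and not on that intensity. Levels of different probe sets are not compared. A gene is given by 1 representative probe set, and the differences of its other tested probe sets follow its own.

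The Gapdh control's 3' to 5' ratio, which climbs when RNA is degraded or labelled short, lay between 1.40 and 1.68 on the 6 d arrays, between 0.815 and 1.51 on the Norm arrays and between 3.64 and 4.60 on the 2 d arrays. The same ratio of the actin control lay between 0.474 and 1.66 at 6 d, between 0.0453 and 0.926 in Norm and between 3.64 and 4.98 at 2 d. On the 4 d arrays the Gapdh ratio lay between 0.859 and 1.49 and the actin ratio between 0.0272 and 0.613. The part of RNA quality in the differences was not tested. In 1303 genes read on both A and B, the A array labelled Norm 1b did not go with its label: its deviations correlated at 0.17 with those of the B array labelled 4 d 1a and at 0.01 with those of Norm 1b. The A array labelled 4 d 1a correlated at 0.13 with Norm 1a on B and at -0.04 with 4 d 1a. Against Norm, A genes are therefore described with the array labelled Norm 1b and both arrays labelled 4 d, in the order 1a and 1b. The lists are also given from B and C alone, where a gene takes its best B or C probe set. Among the markers chosen for lung cells, the alveolar genes Sftpb and Ager were bright. The endothelial marker Pecam1 read 359 on the array labelled Norm 1b, 418 and 753 on those labelled 4 d, and 465 and 670 at 6 d. The type 2 cell surfactant gene Sftpb read 17146 on the array labelled Norm 1b, 12861 and 14232 on those labelled 4 d, and 15044 and 16066 at 6 d. The type 1 cell gene Ager read 17124 on the array labelled Norm 1b, 15902 and 13279 on those labelled 4 d, and 21517 and 17607 at 6 d. The liver genes Alb and Apoa1 and the T cell genes Cd3e and Cd3g were too dim to test. Of the thymus markers Ptcra was not tested, but Rag1 and Dntt were. Rag1 read 1616 on the array labelled Norm 1b, 1533 and 2145 on those labelled 4 d, and 1503 and 2634 at 6 d. Dntt read 335 on the array labelled Norm 1b, 445 and 684 on those labelled 4 d, and 375 and 548 at 6 d.

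No probe set passed an adjusted p of 0.05 at 6 d against Norm (0% of 25801; the smallest adjusted p, from limma with Benjamini-Hochberg adjustment, was 0.125). An unadjusted p under 0.05 was reached by 2365 probe sets, 1121 higher and 1244 lower at 6 d, where 1290 would reach it by chance alone. Of the genes, 4.59% were higher and 4.54% lower at that unadjusted level, 6481 read higher, 6212 lower, and the median difference was 0. Every list count at the unadjusted level against Norm is to be read beside these 4.59% and 4.54%. Without the sample Norm 1a 2 probe sets passed. No gene is therefore called for this comparison, and the genes below are described by their values.

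Among the 10 genes with the smallest p, none of which passed, 3 read higher at 6 d. Nat14, a gene of the N-acetyltransferase family, read 742 and 876 in Norm and 2968 and 3457 at 6 d (1.99 ± 0.29), from a probe set whose suffix marks an incomplete set of probes. Rai14, which encodes an actin-associated ankyrin repeat protein, read 2779 and 2787 in Norm and 4953 and 4800.1 at 6 d (0.81 ± 0.13, other probe set 0.74). Nrep, whose product P311 is known from myofibroblasts, read 1776 on the array labelled Norm 1b, 2077 and 2064 on those labelled 4 d, and 3529 and 3733 at 6 d (1.03 ± 0.15). For all 3 genes the 6 d arrays lay above the Norm and the 4 d arrays without overlap.

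The other 7 read lower at 6 d. Srrm2, a large protein of the spliceosome, had the smallest p of all genes and read 10312 and 12652 in Norm and 3093 and 3789 at 6 d (-1.74 ± 0.21). Kmt2e, a chromatin regulator with a SET domain, read 7296 and 8514 in Norm and 2662 and 2717 at 6 d (-1.55 ± 0.24). Ppp1r12a, the subunit that targets myosin phosphatase to myosin, read 5879 and 4359 in Norm and 2404 and 2602 at 6 d (-1.02 ± 0.17). These 3 were lower still on the 2 d arrays, the group with the highest 3' to 5' ratios: 2039 and 1950.0 for Srrm2, 1691 and 1034 for Kmt2e and 1269.5 and 1208 for Ppp1r12a. Their other probe sets differed less, and some the other way. Those of Srrm2 differed by -0.32, -0.07 and 0.47, those of Kmt2e by 0.01, -0.20 and -0.36, and those of Ppp1r12a by 0.44, -0.42, -0.61 and -0.23, of which the first had an unadjusted p of 0.014. AU040972, an expressed sequence with no assigned role here, read 7153 and 7498 in Norm and 3184 and 3101 at 6 d (-1.22 ± 0.19). Its 4 d arrays were as low, at 2642 and 2242. The remaining genes, Ccdc153, Drc3 and Fam183b, belong to motile cilia and are described with them. Adjusted p-values (limma) of the 10 genes ran from 0.125 to 0.189.

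**Figure D1:**
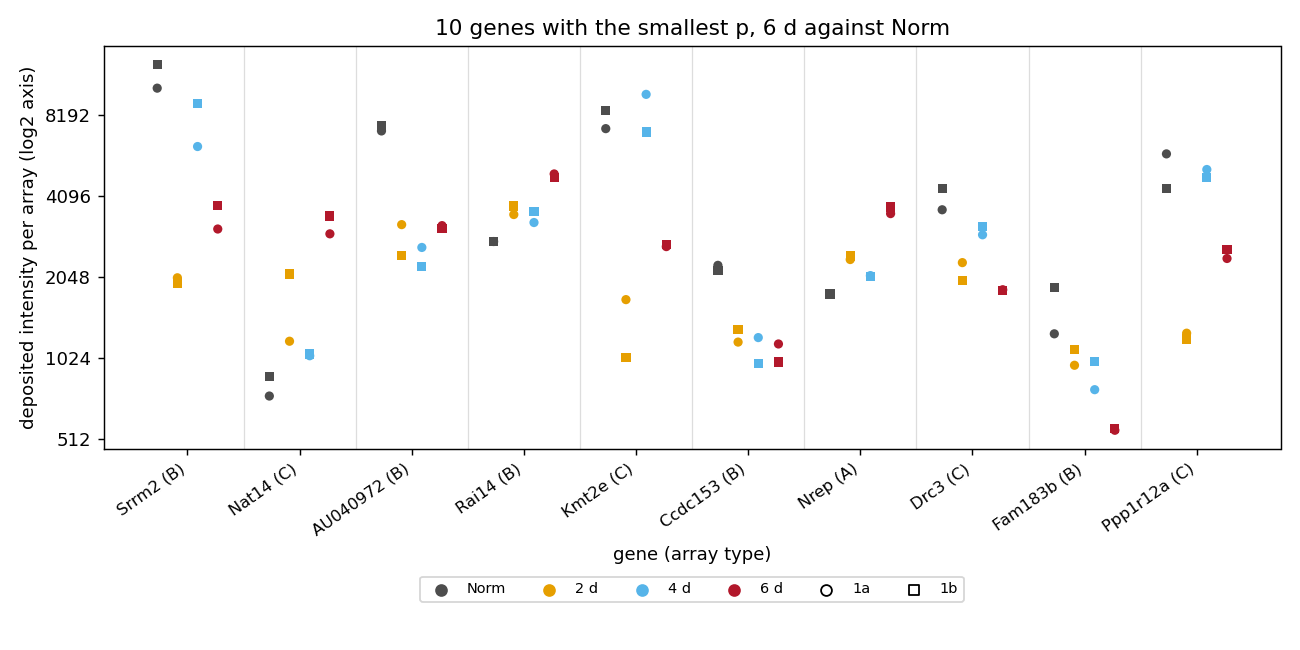
Deposited intensity on each array (log2 axis) of the 10 genes with the smallest p at 6 d against Norm, with the array type after each symbol; colours mark Norm, 2 d, 4 d and 6 d, circles sample 1a and squares sample 1b. Srrm2, Kmt2e and Ppp1r12a are lowest at 2 d, while Nat14, Rai14 and Nrep are highest at 6 d; none of the 10 passed the threshold.

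Cell division stood first among the lists by its median, and most of that median came from type A. Of 46 tested genes of mitosis and the G2/M transition, 43 read higher and 3 lower at 6 d, with a median difference of 0.52 against 0 over all genes, and 12 were higher at the unadjusted level against 4.59% of all genes. Fitted on B and C alone, 14 of 17 read higher and the median was 0.15. In those B and C genes the per-sample medians, as deviations from the mean of all samples, were 0.34 and 0.24 at 6 d, 0.25 in Norm 1a and -0.26 in Norm 1b, so the 6 d samples overlapped with 1 of the Norm samples. On type A, 32 of 33 genes read above the array labelled Norm 1b, but both 6 d arrays lay above that array and both arrays labelled 4 d in 4 of 33 (12.1%), against 14.0% of the 5248 genes read on A.

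The kinesin Kif22, which binds chromosomes, shows the pattern: it read 413 on the array labelled Norm 1b, 1838 and 579.8 on those labelled 4 d, and 1422 and 1621 at 6 d (1.88 ± 0.56, other probe set 0.39). Neither Kif22 probe set has a plain suffix. Ccnb2, a cyclin that drives entry into mitosis, read 923 on the array labelled Norm 1b, 2248 and 1321 on those labelled 4 d, and 1804 and 1806 at 6 d (0.97 ± 0.29). The condensin subunit Smc2 read 201 on the array labelled Norm 1b, 618 and 427 on those labelled 4 d, and 436 and 539 at 6 d (1.04 ± 0.30). In all 3 genes the array labelled 4 d 1a was brighter than both 6 d arrays and the array labelled Norm 1b was the dimmest of these 5. Kif20a, a kinesin of the cytokinetic midzone, showed the same order at 152 on the array labelled Norm 1b, 678 and 383 on those labelled 4 d, and 473 and 668 at 6 d (1.25 ± 0.39). Birc5, the survivin gene, differed in that its 6 d arrays lay above all 3: it read 117 on the array labelled Norm 1b, 364 and 46 on those labelled 4 d, and 412 and 517 at 6 d, a difference of 0.97 ± 0.31. Its values on the array labelled Norm 1b and on 1 of those labelled 4 d lie under the floor. The Smc2 and Kif20a values on the array labelled Norm 1b lie under the floor too, so their differences are measured from it.

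The genes of DNA replication and S phase depended less on type A. Of 33 tested, 29 read higher and 3 lower, the median was 0.29, and 7 were higher and 1 lower at the unadjusted level. On B and C alone 12 of 14 read higher with a median of 0.21, and the per-sample medians of 0.10 and 0.12 at 6 d lay above the -0.07 and -0.27 of the Norm samples. The 2 d samples, at 0.26 and 0.15, lay above both 6 d samples. Against 2 d, 20 of the 33 genes read lower at 6 d and 13 higher. Thymidine kinase Tk1 read 1241 and 974 in Norm and 1576 and 1758 at 6 d (0.60 ± 0.21, other probe sets 0.43, 0.34, -0.16 and 0.17). Cyclin E2, Ccne2, read 2030.0 and 1682 in Norm and 2790.2 and 2961 at 6 d (0.64 ± 0.20). In both genes the groups did not overlap. On type A, DNA ligase Lig1 read 201 on the array labelled Norm 1b, 634 and 433 on those labelled 4 d, and 665 and 761 at 6 d (1.59 ± 0.42). Mcm3 of the replicative helicase read 255 on the array labelled Norm 1b, 679 and 507 on those labelled 4 d, and 552 and 442 at 6 d (0.95 ± 0.32, other probe set 0.82). The ribonucleotide reductase subunit Rrm2 read 119 on the array labelled Norm 1b, 462 and 335 on those labelled 4 d, and 474 and 364 at 6 d (0.82 ± 0.27). All 3 were dimmest on the array labelled Norm 1b, and for Mcm3 and Rrm2 the 6 d arrays overlapped with those labelled 4 d. For Lig1 and Rrm2 the array labelled Norm 1b lay under the floor, so their differences are measured from that floor. In 7 of 26 genes of this list on A (26.9%) both 6 d arrays lay above all 3 others, against 14.0% of all genes on A, and in 2 below.

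**Figure D2:**
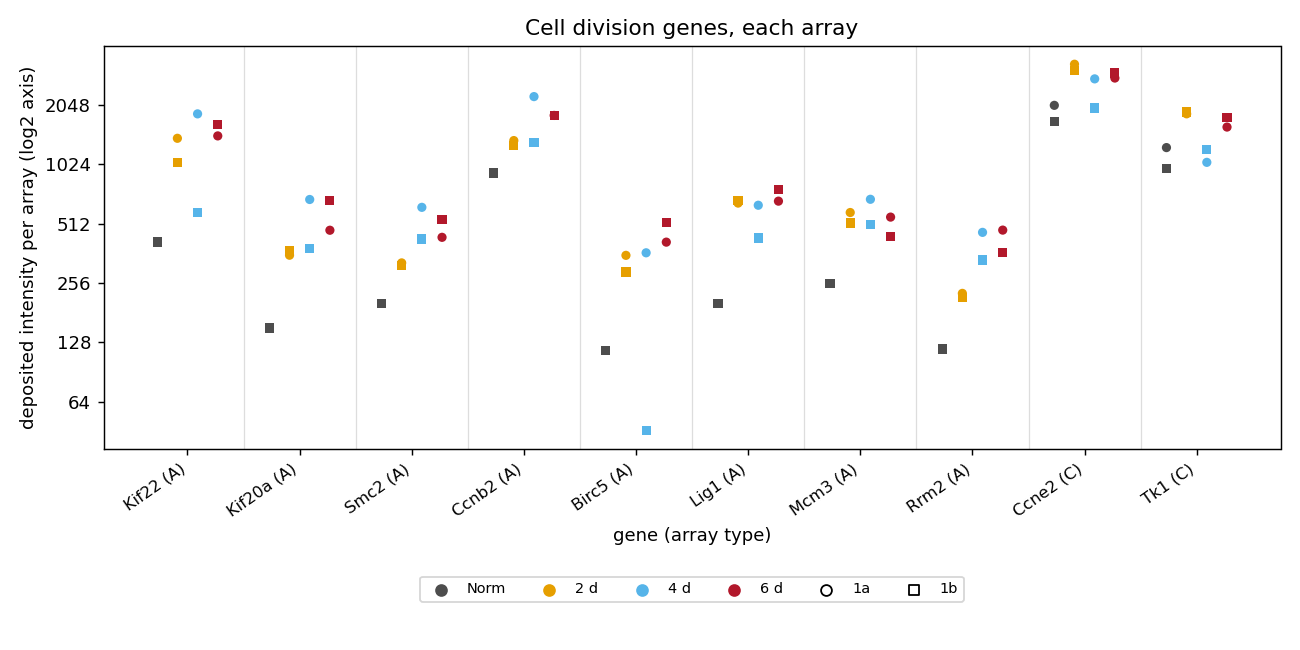
Deposited intensity on each array (log2 axis) of 10 cell division genes; colours mark Norm, 2 d, 4 d and 6 d, circles sample 1a and squares sample 1b, and type A has 1 Norm array. On type A the array labelled Norm 1b is the lowest for Kif22, Ccnb2 and Smc2 and the array labelled 4 d 1a lies at or above the 6 d arrays, while Ccne2 and Tk1, on type C, have both Norm arrays below both 6 d arrays.

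The promoters of division genes carry short motifs known from cell cycle regulation, and because these members read higher together their windows were searched on both strands over the 250 bases before the RefSeq start (GRCm38.p6). TTTGAA, the core of the cell cycle homology region, stood in 16 of the 37 windows found for the 46 mitosis genes (43.2%) and in 16.3% of 27025 windows of all genes. CCAAT, the CCAAT box, stood in 28 of 37 (75.7%) against 34.5%. Neither motif contains the other. The windows of 3 of the genes above that hold both are printed 5' to 3' on the gene's strand, with every TTTGAA and CCAAT, on either strand, in capitals. The window of Birc5 held neither.
Ccnb2, chr9:70421555-70421804, minus strand: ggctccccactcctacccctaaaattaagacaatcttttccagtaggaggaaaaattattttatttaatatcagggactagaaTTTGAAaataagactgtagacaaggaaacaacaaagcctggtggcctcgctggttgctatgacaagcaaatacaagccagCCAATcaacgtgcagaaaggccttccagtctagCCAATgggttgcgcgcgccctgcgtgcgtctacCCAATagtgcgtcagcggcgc
Kif22, chr7:127042421-127042670, minus strand: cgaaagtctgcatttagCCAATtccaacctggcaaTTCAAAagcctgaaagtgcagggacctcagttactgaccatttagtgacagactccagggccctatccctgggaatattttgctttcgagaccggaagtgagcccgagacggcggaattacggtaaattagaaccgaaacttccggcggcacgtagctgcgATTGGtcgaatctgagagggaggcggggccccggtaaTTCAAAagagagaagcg
Smc2, chr4:52438971-52439220, plus strand: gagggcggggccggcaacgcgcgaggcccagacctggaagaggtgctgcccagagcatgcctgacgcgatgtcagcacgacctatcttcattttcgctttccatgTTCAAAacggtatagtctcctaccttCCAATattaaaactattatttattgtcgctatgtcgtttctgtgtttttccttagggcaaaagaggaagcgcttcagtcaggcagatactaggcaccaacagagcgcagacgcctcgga

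Alveolar type 2 cell genes read higher at 6 d, and here B and C carried the difference. Of 26 tested, 22 read higher and 4 lower, the median was 0.45, and 8 were higher at the unadjusted level (4.59% of all genes). On B and C alone 12 of 13 read higher, 7 of them at the unadjusted level, with a median of 0.55. The per-sample medians over those genes were 0.30 and 0.35 at 6 d, 0.27 and 0.25 at 4 d, 0.07 and -0.29 in Norm and -0.22 and -0.30 at 2 d. Lyz1, a lysozyme secreted by type 2 cells and by myeloid cells, read 10889.9 and 6661 in Norm and 33033 and 29448 at 6 d (1.87 ± 0.36). Its probe set has a suffix that marks probes shared with related transcripts, so reads of other lysozyme genes may enter it. Egfl6, a secreted EGF repeat protein, read 27705 and 14802 in Norm and 44039 and 38984 at 6 d (1.03 ± 0.30). Etv5, a transcription factor that maintains type 2 cells, read 3826 and 2598 in Norm and 4821 and 5794 at 6 d (0.75 ± 0.20). In these 3 genes the Norm samples differed from each other as well, with 1a the brighter. Abca3, the lipid pump of the lamellar body, read 9046 and 8641 in Norm and 12305 and 13555 at 6 d (0.55 ± 0.19, other probe set 0.54). Il33, an alarmin cytokine stored in these cells, read 6367 and 5851 in Norm and 8653 and 8985 at 6 d (0.53 ± 0.17, other probe set 0.52). Lgi3, a secreted leucine-rich repeat protein, read 2867 and 2364 in Norm and 4069 and 3951 at 6 d (0.62 ± 0.21, other probe sets 0.84 and 0.70). For all 6 genes both 6 d arrays lay above both Norm arrays. The defining surfactant genes on A were mixed. Sftpc, surfactant protein C, read 7199 on the array labelled Norm 1b, 13211 and 10121 on those labelled 4 d, and 21894 and 10008 at 6 d (1.04 ± 0.66), and its 6 d arrays overlapped with those labelled 4 d. Sftpb differed by -0.14 ± 0.25.

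Type 1 cell and caveolar genes, which mark the thin gas exchange cells, read higher in 13 of 16. Their median was 0.22 in the whole list and on B and C alone. At the unadjusted level 1 gene was higher, 6.25% of the list against 4.59% of all genes. That gene was Aqp5, a water channel, which read 3378 and 3267 in Norm and 4549.6 and 5234 at 6 d (0.55 ± 0.14). On A, both 6 d arrays lay above the arrays labelled Norm 1b, 4 d 1a and 4 d 1b in 5 of 9 genes (55.6% against 14.0% of all genes on A). They include Pdpn, a membrane mucin, at 1196 on the array labelled Norm 1b, 886 and 768 on those labelled 4 d, and 1784 and 1706 at 6 d (0.54 ± 0.31). Igfbp2, which binds insulin-like growth factors, is another and read 4923 on the array labelled Norm 1b, 6518 and 3267 on those labelled 4 d, and 7607 and 8671 at 6 d (0.72 ± 0.35).

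Genes of motile cilia, the beating organelles of airway cells, read lower. Of 33 tested, 23 read lower and 9 higher, the median was -0.22, and 10 were lower at the unadjusted level against 4.54% of all genes. All 10 were read on B or C, where 20 of 24 genes read lower with a median of -0.34 in the fit of B and C alone. Spag6l, of the central pair of the axoneme, read 1296 and 1748 in Norm and 410.2 and 217 at 6 d (-2.34 ± 0.42, other probe set -1.07). Ccdc113 read 2057 and 2656 in Norm and 1138 and 1142 at 6 d (-1.04 ± 0.21). Cfap52, a protein of the ciliary doublets, read 661 and 542 in Norm and 359.8 and 306 at 6 d (-0.85 ± 0.19). In these 3 genes the 6 d arrays lay below both Norm arrays. Traf3ip1, which carries cargo in intraflagellar transport, read 3235 and 3895 in Norm and 1871 and 1970.0 at 6 d (-0.89 ± 0.17). Drc3, of the complex that regulates axonemal dynein, read 3646 and 4363 in Norm and 1841 and 1831 at 6 d (-1.12 ± 0.18, other probe set -0.40). Ccdc153, a coiled-coil gene of the list, read 2267 and 2171 in Norm and 1158 and 993 at 6 d (-1.05 ± 0.16). These 3 too were lower on both 6 d arrays than on both Norm arrays. The same held for Fam183b, at 1263 and 1872 in Norm and 554 and 562 at 6 d (-1.46 ± 0.24). Spag6l and Traf3ip1 were lower still at 2 d, at 144 and 120.5 for Spag6l and 1529.9 and 1463 for Traf3ip1, where the 3' to 5' ratios were highest.

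The cilia genes were not lower throughout. Foxj1, the master transcription factor of ciliated cells, read 1462 on the array labelled Norm 1b, 1967 and 1075 on those labelled 4 d, and 1584 and 1643 at 6 d (0.14 ± 0.37). Tekt1, a tektin of the axoneme, lay under the floor in Norm and at 6 d, so its difference could only be 0. Dnali1, the remaining marker chosen for ciliated cells, was lower: it read 1661 and 2959 in Norm and 1261 and 1060 at 6 d (-0.94 ± 0.35). The 11 cilia genes on A had a median of 0.01, and none of them had both 6 d arrays below all 3 others. The summed intensity of the 22 cilia genes on B and C was 29973 and 33626 in Norm, 21401 and 20253 at 6 d, 23817 and 26102 at 4 d and 17812 and 17761 at 2 d. On B and C the 6 d samples thus lay below Norm and 4 d and above 2 d. The sum of the 11 on A went the other way. It was 23315 on the array labelled Norm 1b, 25649 and 19495 on those labelled 4 d, 27492 and 25138 at 6 d and 35668 and 37589 at 2 d.

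Club cell genes, of the secretory airway cells, read lower in 15 of 19 with a median of -0.20, and 3 were lower at the unadjusted level. They rest on A, which held 17 of the 19. On B and C alone all 4 read higher, with a median of 0.10. The detoxifying enzyme Cyp1a1 read 966 on the array labelled Norm 1b, 193 and 1199 on those labelled 4 d, and 226 and 254 at 6 d (-1.98 ± 0.74). The flavin monooxygenase Fmo1 read 10881 on the array labelled Norm 1b, 5194 and 12829 on those labelled 4 d, and 5353 and 4585 at 6 d (-1.14 ± 0.44). In both genes the arrays labelled Norm 1b and 4 d 1b were high and the other 3 low, so the 6 d arrays stood near the one labelled 4 d 1a. Gsta3, a glutathione transferase, read 1082 on the array labelled Norm 1b, 691 and 1156 on those labelled 4 d, and 444 and 591 at 6 d (-1.08 ± 0.38), below all 3. The defining secretoglobin Scgb1a1 went the other way, above all 3, at 12923 on the array labelled Norm 1b, 8273 and 13924 on those labelled 4 d, and 31684 and 21279 at 6 d (1.01 ± 0.64).

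**Figure D3:**
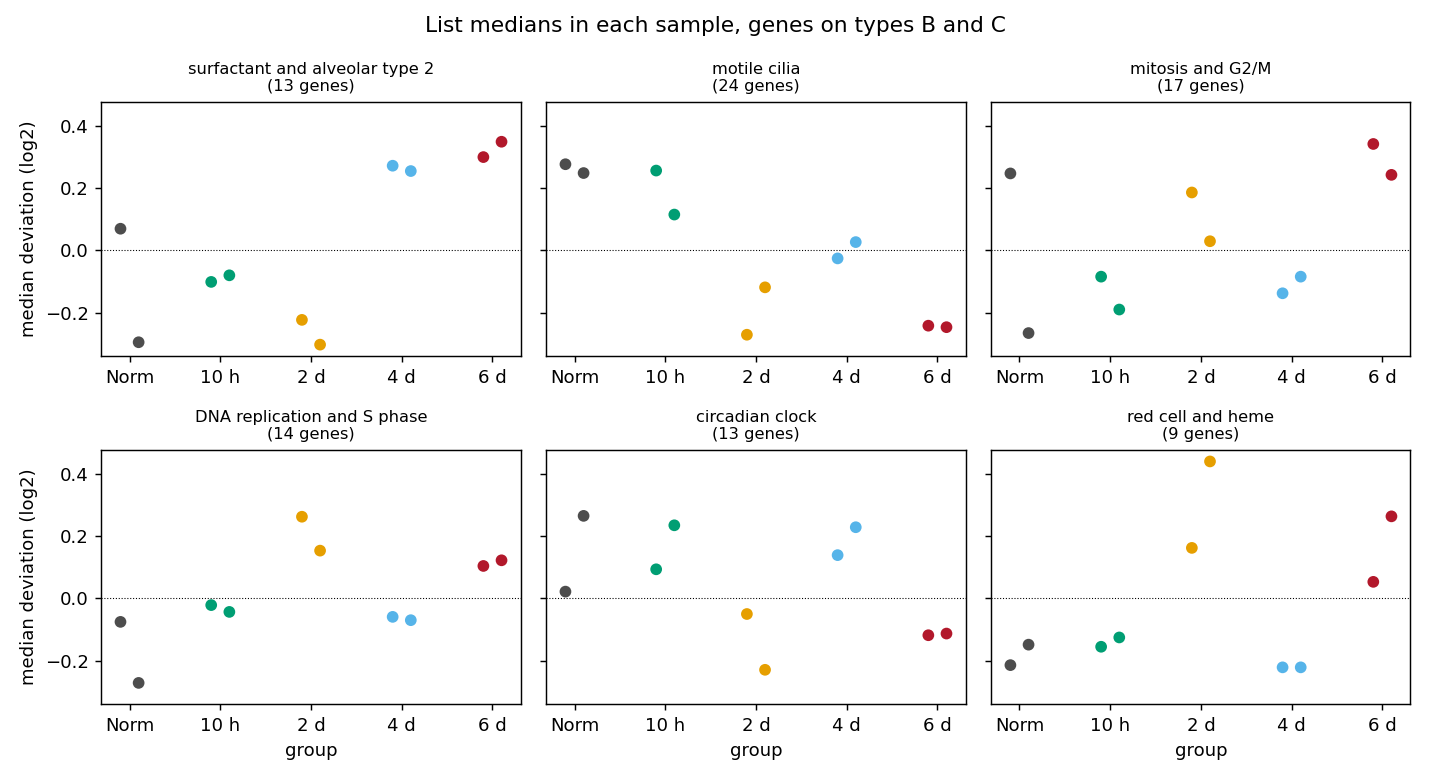
Median deviation (log2) from the mean of all samples, for the B and C genes of 6 lists, in each sample of the 5 groups; each point is 1 sample. At 6 d the alveolar type 2 medians lie at 0.30 and 0.35 above both Norm samples, the cilia medians at -0.24 and -0.25 below both, and the mitosis medians overlap with Norm 1a at 0.25.

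The extracellular matrix was read with its elastic fibre genes first, since elastin is laid down in remodelled pulmonary arteries. Of 16 tested, 14 read higher and 2 lower, the median was 0.24, and 5 were higher and 1 lower at the unadjusted level. On B and C alone 5 of 8 read higher, 2 lower, and the median was 0.11. Against 2 d, 13 of the 16 read higher at 6 d and 3 lower, with a median of 0.15. The summed intensity of the 10 on A was nevertheless 41285 and 48466 at 2 d and 38202 and 31817 at 6 d. On the array labelled Norm 1b it was 18500. The sum of the 6 on B and C was 17906 and 15477 at 2 d and 18703 and 18543 at 6 d. Elastin, Eln, read 6639 on the array labelled Norm 1b, 12249.7 and 7066 on those labelled 4 d, and 21339.7 and 13907 at 6 d (1.38 ± 0.39, other probe set 2.96). Both 6 d arrays lay above all 3 others. Fbln5, a fibulin that organises the fibre, read 5303 and 4344 in Norm and 7399 and 7645 at 6 d (0.65 ± 0.20) without overlap. Mfap4, a microfibril protein, read 384 on the array labelled Norm 1b, 3049.7 and 919 on those labelled 4 d, and 2596 and 4149 at 6 d (3.10 ± 0.61), the largest difference among the representative probe sets of the 13039 genes. The array labelled 4 d 1a lay between its 6 d arrays. This Mfap4 probe set has a suffix that marks probes shared with related transcripts. Lox, the enzyme that crosslinks elastin and collagen, read 463 on the array labelled Norm 1b, 1569 and 447 on those labelled 4 d, and 1393 and 1422 at 6 d (1.61 ± 0.59), with the array labelled 4 d 1a above both 6 d arrays. Ltbp2, of the latent TGF-beta binding family, read 782 on the array labelled Norm 1b, 1218 and 916 on those labelled 4 d, and 1484 and 1379 at 6 d (0.87 ± 0.26). Its relative Ltbp3 was the gene lower at the unadjusted level and read 540.5 on the array labelled Norm 1b, 242 and 97.6 on those labelled 4 d, and 192 and 275 at 6 d (-1.08 ± 0.23).

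Collagen genes read higher in 21 of 29 and lower in 6, with a median of 0.27, but on B and C alone 5 of 13 read higher and the median was -0.09. Against 2 d, 14 read higher at 6 d and 14 lower, with a median of 0. The summed intensity of the 23 on A was 98429 and 91578 at 2 d and 84850 and 82998 at 6 d. It was 61416 on the array labelled Norm 1b. The sum of the 6 on B and C was 11225 and 11407 at 2 d and 14108 and 14264 at 6 d. Against Norm, the basement membrane chains held the 2 genes higher at the unadjusted level, which are 6.90% of the list against 4.59% of all genes. Col4a2 read 7809 on the array labelled Norm 1b, 12297 and 9395 on those labelled 4 d, and 13752 and 13211 at 6 d (0.79 ± 0.25, other probe set 0.65). Col4a4, on C, read 6904 and 6089.6 in Norm and 8929 and 8877 at 6 d (0.46 ± 0.14). Both were higher at 6 d without overlap. Of the fibrillar chains, Col1a1 read 4497 on the array labelled Norm 1b, 7642 and 3831 on those labelled 4 d, and 7644 and 7596 at 6 d (0.76 ± 0.36, other probe set 0.65). Col3a1 read 3699.9 on the array labelled Norm 1b, 7252 and 3699 on those labelled 4 d, and 5254 and 5196 at 6 d (0.50 ± 0.33, other probe sets 1.08 and 0.82). The array labelled 4 d 1a lay between the 6 d arrays for Col1a1 and above both for Col3a1. Proteases and their inhibitors read higher in 6 of 17 with a median of -0.06 (-0.16 on B and C alone). Timp2, an inhibitor of matrix metalloproteinases, read 2271 on the array labelled Norm 1b, 1844 and 1827 on those labelled 4 d, and 1358 and 1355 at 6 d (-0.74 ± 0.19, other probe set 0.33). The stromelysin Mmp3 read 1279 on the array labelled Norm 1b, 2132 and 1419 on those labelled 4 d, and 797 and 811 at 6 d (-0.67 ± 0.25). For both genes the 6 d arrays lay below all 3 others, but the Timp2 probe set on C read higher at 6 d. Of 17 matricellular genes 12 read higher and the median was 0.17 (0.23 over 3 genes on B and C alone). Dcn, the proteoglycan decorin, read 10112 on the array labelled Norm 1b, 6341 and 7328 on those labelled 4 d, and 4958 and 4842 at 6 d (-1.05 ± 0.30). Ccn4, a target of Wnt signalling, read 274 on the array labelled Norm 1b, 392 and 354 on those labelled 4 d, and 498 and 491 at 6 d (0.85 ± 0.24). The 6 d arrays of Dcn lay below and those of Ccn4 above all 3 others. Fibronectin, Fn1, read 1799 on the array labelled Norm 1b, 2681 and 2262 on those labelled 4 d, and 2859.5 and 2488 at 6 d (0.57 ± 0.23).

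Contractile smooth muscle genes read lower and pericyte genes higher, in RNA of whole lung that does not separate vessels from airways. Of 22 smooth muscle genes 16 read lower, the median was -0.19 (-0.30 on B and C alone), and 5 were lower at the unadjusted level; on A, both 6 d arrays lay below all 3 others in 7 of 15 genes (46.7% against 11.5% of all genes on A). Cnn1, calponin, read 1524 on the array labelled Norm 1b, 1130.0 and 1427 on those labelled 4 d, and 783 and 672 at 6 d (-1.07 ± 0.28). Tpm2, a tropomyosin, read 1168 on the array labelled Norm 1b, 839 and 801 on those labelled 4 d, and 731 and 628 at 6 d (-0.79 ± 0.26). Actg2, the enteric actin, read 3023 on the array labelled Norm 1b, 2942 and 2564 on those labelled 4 d, and 2108 and 2066 at 6 d (-0.53 ± 0.19). In these 3 genes both 6 d arrays were dimmer than all 3 others. Myocd, the coactivator of the contractile programme, read 386 and 542 in Norm and 340.2 and 219 at 6 d (-0.52 ± 0.22). Acta2, smooth muscle actin, read 5726 on the array labelled Norm 1b, 6477 and 4534 on those labelled 4 d, and 5043 and 4564 at 6 d (-0.26 ± 0.26, other probe set -1.14). Its other probe set, on C, read 703.6 and 565 in Norm and 345 and 236 at 6 d.

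Pericyte and PDGF genes read higher in 12 of 15, with a median of 0.29 (0.19 on B and C alone), and 3 were higher at the unadjusted level. Rgs5, a regulator of G protein signalling that marks pericytes, read 319.5 and 325 in Norm and 617 and 496 at 6 d (0.78 ± 0.13, other probe set 0.18). Its 2 d and 4 d arrays, at 247 and 291 and at 276 and 240.4, all lay under the floor, and its Norm arrays lay just above it. Higd1b, a gene of lung pericytes, read 2246 and 2029 in Norm and 3198 and 3116 at 6 d (0.56 ± 0.19). The receptor Notch3 read 1648 on the array labelled Norm 1b, 2040.0 and 1825 on those labelled 4 d, and 2253 and 2368 at 6 d (0.49 ± 0.17). The ligand Pdgfb read 5146 and 6477 in Norm and 6863 and 7538 at 6 d (0.32 ± 0.21, other probe set 0.43). In all 4 genes the 6 d arrays lay above Norm and 4 d, but Higd1b and Pdgfb were brighter still at 2 d, at 4353 and 4114 for Higd1b and 9083 and 7676 for Pdgfb.

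Endothelial genes split, with 20 of 33 higher, 13 lower and a median of 0.06 (-0.02 on B and C alone). At the unadjusted level 5 were higher (15.2% against 4.59% of all genes) and 3 lower (9.09% against 4.54%). Sox17, a transcription factor of arterial endothelium, read 1592 on the array labelled Norm 1b, 3079 and 1542 on those labelled 4 d, and 3289 and 3456 at 6 d (1.08 ± 0.34, other probe sets -0.23 and 0.67). Emcn, a sialomucin of capillaries and veins, read 2267 on the array labelled Norm 1b, 2974 and 2498 on those labelled 4 d, and 3467 and 3260.3 at 6 d (0.57 ± 0.17, other probe sets 0.26 and 0.60). Among those lower, Efnb2, an arterial ephrin, read 5335 on the array labelled Norm 1b, 2565 and 5209 on those labelled 4 d, and 2657 and 2248 at 6 d (-1.13 ± 0.37). Its 6 d arrays overlapped with the one labelled 4 d 1a. Lyve1, a receptor of lymphatic endothelium, read 2254 and 1829 in Norm and 1241 and 1542 at 6 d (-0.55 ± 0.20, other probe set -1.53). On A, both 6 d arrays lay above all 3 others in 9 of 24 endothelial genes (37.5% against 14.0% of all genes on A) and below them in 2. VEGF and angiopoietin genes read lower in 11 of 15, with a median of -0.22 (-0.24 on B and C alone) and 2 lower at the unadjusted level. Vegfb, a ligand, read 1334 on the array labelled Norm 1b, 946 and 1299 on those labelled 4 d, and 850.4 and 826 at 6 d (-0.67 ± 0.29). The angiopoietin receptor Tek read 2905 on the array labelled Norm 1b, 2716 and 3395 on those labelled 4 d, and 2047 and 2051 at 6 d (-0.50 ± 0.18). For both genes the 6 d arrays lay below all 3 others. Vegfa, the main ligand, read 2289 on the array labelled Norm 1b, 4160.0 and 1667 on those labelled 4 d, and 1631 and 1672 at 6 d (-0.47 ± 0.44, other probe sets 0.31 and -0.89). Its receptor Kdr read 3161 on the array labelled Norm 1b, 3038 and 2784 on those labelled 4 d, and 2476 and 1829.8 at 6 d (-0.57 ± 0.35, other probe set 0.36).

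Among the signals that set vessel tone, the endothelin list had 5 tested genes, 4 of them higher, with a median of 0.23 (0.22 on B and C alone, but -0.10 without the sample Norm 1b). Edn1, the constrictor peptide endothelin-1, read 709.6 on the array labelled Norm 1b, 2374 and 1058 on those labelled 4 d, and 1720.3 and 1573 at 6 d (1.21 ± 0.39, other probe set 0.14). Ednrb, a receptor, read 287 on the array labelled Norm 1b, 83.6 and 406 on those labelled 4 d, and 100.4 and 49.9 at 6 d (-0.28 ± 0.29, other probe set -0.04). Its other probe set, on B, was bright, at 5230.2 and 6146 in Norm and 5435 and 5604 at 6 d. Nitric oxide, cyclic GMP and prostacyclin genes read higher in 8 of 15, with a median of 0.03 (0.14 on B and C alone) and 3 higher at the unadjusted level. Nos3, the endothelial nitric oxide synthase, read 83.3 on the array labelled Norm 1b, 231 and 89.4 on those labelled 4 d, and 456 and 481 at 6 d (0.99 ± 0.36), where the array labelled Norm 1b lay under the floor. Nos1, the neuronal form, read 357 and 578 in Norm and 973 and 849.9 at 6 d (1.0 ± 0.31). Pde5a, the phosphodiesterase that breaks down cyclic GMP, read 1253 and 659.6 in Norm and 1339 and 2079 at 6 d (0.88 ± 0.33). For Nos1 and Pde5a the 6 d arrays lay above both Norm arrays. Of 24 potassium channel genes 11 read higher and 10 lower, with a median of -0.04 on B and C alone. Kcna5, a voltage-gated channel of pulmonary artery muscle, read 284 and 268 in Norm and 441 and 410.2 at 6 d (0.63 ± 0.32).

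BMP and TGF-beta genes, the pathway mutated in heritable pulmonary hypertension, read lower in 21 of 35, with a median of -0.09 (0 on B and C alone). At the unadjusted level 3 were lower, 8.57% of the list against 4.54% of all genes. Bmpr2, the type II receptor, read 21338 and 23137 in Norm and 19945 and 18961 at 6 d (-0.19 ± 0.34, other probe sets -0.10, -0.09, -0.19 and -0.29). Acvrl1, a type I receptor, read 3902 and 6329 in Norm and 5188 and 5799.8 at 6 d (0.14 ± 0.26, other probe sets -0.24, -0.81 and -0.35). The 3 other probe sets of Acvrl1, all on A, read lower at 6 d. Downstream, the inhibitory Smad6 read 5564 on the array labelled Norm 1b, 2435 and 3471 on those labelled 4 d, and 2109 and 2642 at 6 d (-1.24 ± 0.29). The target Id3 read 3805 on the array labelled Norm 1b, 2397 and 2676 on those labelled 4 d, and 2648 and 2386 at 6 d (-0.60 ± 0.18). In both genes the array labelled 4 d 1a lay between the 6 d arrays. The ligand Bmp6 read 2768 on the array labelled Norm 1b, 1658 and 2799.6 on those labelled 4 d, and 1057 and 1309 at 6 d (-1.24 ± 0.32, other probe set -1.48), below all 3. Tgfb1, the ligand of the fibrotic branch, read 643 on the array labelled Norm 1b, 372 and 306 on those labelled 4 d, and 479 and 837 at 6 d (-0.02 ± 0.43).

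Of 10 oxygen-sensing subunits and regulators 8 read higher, with a median of 0.14 (0.21 on B and C alone) and none at the unadjusted level in either direction. Hif1a, the HIF-1 alpha subunit, read 4787 on the array labelled Norm 1b, 4915 and 5152 on those labelled 4 d, and 5596 and 4786 at 6 d (0.11 ± 0.22, other probe set 0.00). Epas1, which encodes HIF-2 alpha, read 20553 and 31318 in Norm and 30342 and 26445 at 6 d (0.16 ± 0.42, other probe set -1.05). The Epas1 probe set on A went the other way, with an unadjusted p of 0.018. Egln3, a prolyl hydroxylase that is itself induced by HIF, read 748 and 922 in Norm and 1116 and 1223 at 6 d (0.49 ± 0.30, other probe set -0.04). HIF targets and glycolysis genes read higher in 18 of 29 with a median of 0.09, and -0.04 on B and C alone. The 16 glycolysis genes had a median of -0.01 and the 13 other targets 0.15. Ddit4, an inhibitor of mTOR induced by hypoxia, read 484 on the array labelled Norm 1b, 1545 and 798 on those labelled 4 d, and 949.8 and 1124 at 6 d (1.09 ± 0.36). Tfrc, the transferrin receptor, read 2019 and 1202 in Norm and 2741 and 2559 at 6 d (0.77 ± 0.28, other probe sets 0.11 and 0.19). ACGTG, the core of the hypoxia response element, stood in 13 of 27 windows of this list (48.1%) and in 16.5% of all windows.

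Circadian clock genes read lower in 13 of 21, with a median of -0.28 (-0.19 on B and C alone, but 0.05 without the sample Norm 1b) and 4 lower at the unadjusted level. By role, the 5 activators had a median of 0.36, the 11 repressors -0.37 and the 5 output genes -0.59. The hour at which lungs were taken is not in the labels, and its part was not tested. Hlf, an output factor, read 623 and 731 in Norm and 334 and 324 at 6 d (-1.04 ± 0.23), against 1014 and 996 at 4 d. Dbp, another, read 1322 on the array labelled Norm 1b, 222 and 1450.3 on those labelled 4 d, and 191 and 250.5 at 6 d (-2.44 ± 0.83), with a low array labelled 4 d 1a and a high one labelled 4 d 1b. Tef, another member of this PAR bZIP family, read 2693 on the array labelled Norm 1b, 1809.7 and 1931 on those labelled 4 d, and 2123 and 1504 at 6 d (-0.59 ± 0.23). Ciart, a repressor, read 1529.8 and 2559.8 in Norm and 1416 and 1428 at 6 d (-0.48 ± 0.22). CACGTG, the E-box bound by the clock activators, stood in 5 of 18 windows of the list (27.8%) and in 6.04% of all windows. The windows of Ciart and Tef are shown because they hold it, in capitals. It reads the same on both strands and contains an ACGTG on each. Those of Dbp, Hlf and Nfil3 held none.
Ciart, chr3:95882229-95882478, minus strand: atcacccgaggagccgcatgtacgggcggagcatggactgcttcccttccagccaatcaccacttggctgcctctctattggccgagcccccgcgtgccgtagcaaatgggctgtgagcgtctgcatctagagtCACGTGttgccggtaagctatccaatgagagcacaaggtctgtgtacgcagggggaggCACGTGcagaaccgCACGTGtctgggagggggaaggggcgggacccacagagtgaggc
Tef, chr15:81802423-81802672, plus strand: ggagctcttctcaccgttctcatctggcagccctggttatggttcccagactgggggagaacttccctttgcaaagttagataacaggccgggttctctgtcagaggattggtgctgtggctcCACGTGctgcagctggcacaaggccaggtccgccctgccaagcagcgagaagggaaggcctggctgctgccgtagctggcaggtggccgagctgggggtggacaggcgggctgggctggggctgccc

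Striated muscle genes read lower on type A. Heart muscle genes, which whole mouse lung expresses in the sleeve of the pulmonary veins, read lower in 23 of 28, with a median of -0.28 (-0.21 on B and C alone) and 6 lower at the unadjusted level; on A both 6 d arrays lay below all 3 others in 11 of 24 genes (45.8% against 11.5%). The atrial light chain Myl7 read 4975 on the array labelled Norm 1b, 2619 and 3181 on those labelled 4 d, and 2380.1 and 2221 at 6 d (-1.11 ± 0.21, other probe set -0.25). The cardiac myosin Myh6 read 3099 on the array labelled Norm 1b, 2678 and 2819 on those labelled 4 d, and 2011 and 1688 at 6 d (-0.75 ± 0.20). In both genes the 6 d arrays were the dimmest of these 5, but they overlapped with the 2 d arrays. Those read 2225 and 1758 for Myl7 and 1814 and 1441 for Myh6. The 10 h arrays of Myh6, at 1712 and 1884, lay between its 6 d arrays. Against 2 d, 19 of the 28 heart muscle genes read higher at 6 d and 6 lower. Against Norm, skeletal muscle genes read lower in 12 of 17, with a median of -0.57 and 7 lower at the unadjusted level. Acta1, skeletal actin, read 6076 on the array labelled Norm 1b, 1699.6 and 3941 on those labelled 4 d, and 915 and 1160.4 at 6 d (-2.56 ± 0.44), the lowest difference of all genes. At 10 h it was 80.1 and 26.8, under the floor. The summed intensity of the 16 skeletal genes on A was 16277 on the array labelled Norm 1b, 7178 and 7146 at 6 d, 9781 and 13844 on those labelled 4 d and 5448 and 5311 at 10 h. On B and C alone 3 of 4 skeletal genes read higher with a median of 0.30, and without the sample Norm 1b the list's median was 0.06. How much muscle tissue each lung sample carried was not measured.

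Of the blood and immune genes, red cell and heme genes read higher in 15 of 21, with a median of 0.24. On B and C alone all 9 read higher with a median of 0.35, and the per-sample medians of 0.05 and 0.26 at 6 d lay above -0.21 and -0.15 in Norm and overlapped with the 0.16 and 0.44 at 2 d. Ank1, the ankyrin of the red cell membrane, read 1407 and 1693 in Norm and 2480.3 and 2138 at 6 d (0.58 ± 0.25, other probe sets -0.30, -0.06 and -0.82). The other probe sets of Ank1 read lower. Hba-a1, a globin, read 13306 on the array labelled Norm 1b, 11868 and 18865 on those labelled 4 d, and 31252 and 15094 at 6 d (0.71 ± 0.60). B cell genes read lower in 9 of 10 and higher in none, with a median of -0.75 and 4 lower at the unadjusted level, and 9 of the 10 rest on A. Cd79a, of the B cell receptor, read 1055 on the array labelled Norm 1b, 713 and 647 on those labelled 4 d, and 489 and 502 at 6 d (-1.09 ± 0.29). The heavy chain Ighm read 1421 on the array labelled Norm 1b, 882 and 1529 on those labelled 4 d, and 673 and 682 at 6 d (-1.07 ± 0.31, with 5 other probe sets between -1.32 and 0.00). Of 18 lymphocyte genes on A, both 6 d arrays lay below all 3 others in 9 (50% against 11.5%). The 11 T cell genes had a median of 0.00, as had the whole lymphocyte list on B and C alone.

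Macrophage genes read higher in 18 of 28, with a median of 0.11 (-0.02 on B and C alone) and 4 higher at the unadjusted level. Chil3, a chitinase-like protein of alveolar macrophages, read 4801 on the array labelled Norm 1b, 5431 and 4908 on those labelled 4 d, and 8609 and 6335 at 6 d (0.62 ± 0.22). Cd68, a lysosomal protein of macrophages, read 759 on the array labelled Norm 1b, 788 and 787 on those labelled 4 d, and 997 and 1103 at 6 d (0.47 ± 0.24). Retnla, a resistin-like protein induced in hypoxic mouse lung, read 2301 and 1236 in Norm and 1765 and 1660.2 at 6 d (0.02 ± 0.33), with both 6 d arrays between those of Norm. For Chil3 and Cd68 the 6 d arrays lay above all 3 others. Interferon-stimulated genes read higher in 18 of 29, with a median of 0.18 and 7 higher at the unadjusted level, but -0.18 on B and C alone. Irgm2, an interferon-induced GTPase, read 1783 on the array labelled Norm 1b, 2189 and 2395 on those labelled 4 d, and 3265 and 3082 at 6 d (0.83 ± 0.21, other probe set 0.00). Ifit1, which binds foreign RNA, read 369 on the array labelled Norm 1b, 308 and 317 on those labelled 4 d, and 1003 and 686 at 6 d (1.17 ± 0.33). On A, both 6 d arrays lay above all 3 others in 7 of 21 such genes (33.3% against 14.0% of all genes on A) and below them in 1. Cxcl12, a chemokine made by stromal and endothelial cells, read 1646 on the array labelled Norm 1b, 5825 and 1928 on those labelled 4 d, and 7187 and 6557 at 6 d (2.06 ± 0.50, other probe sets 0.13, 0.56 and 1.22); the first of the others is on B, the rest on A.

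**Figure D4:**
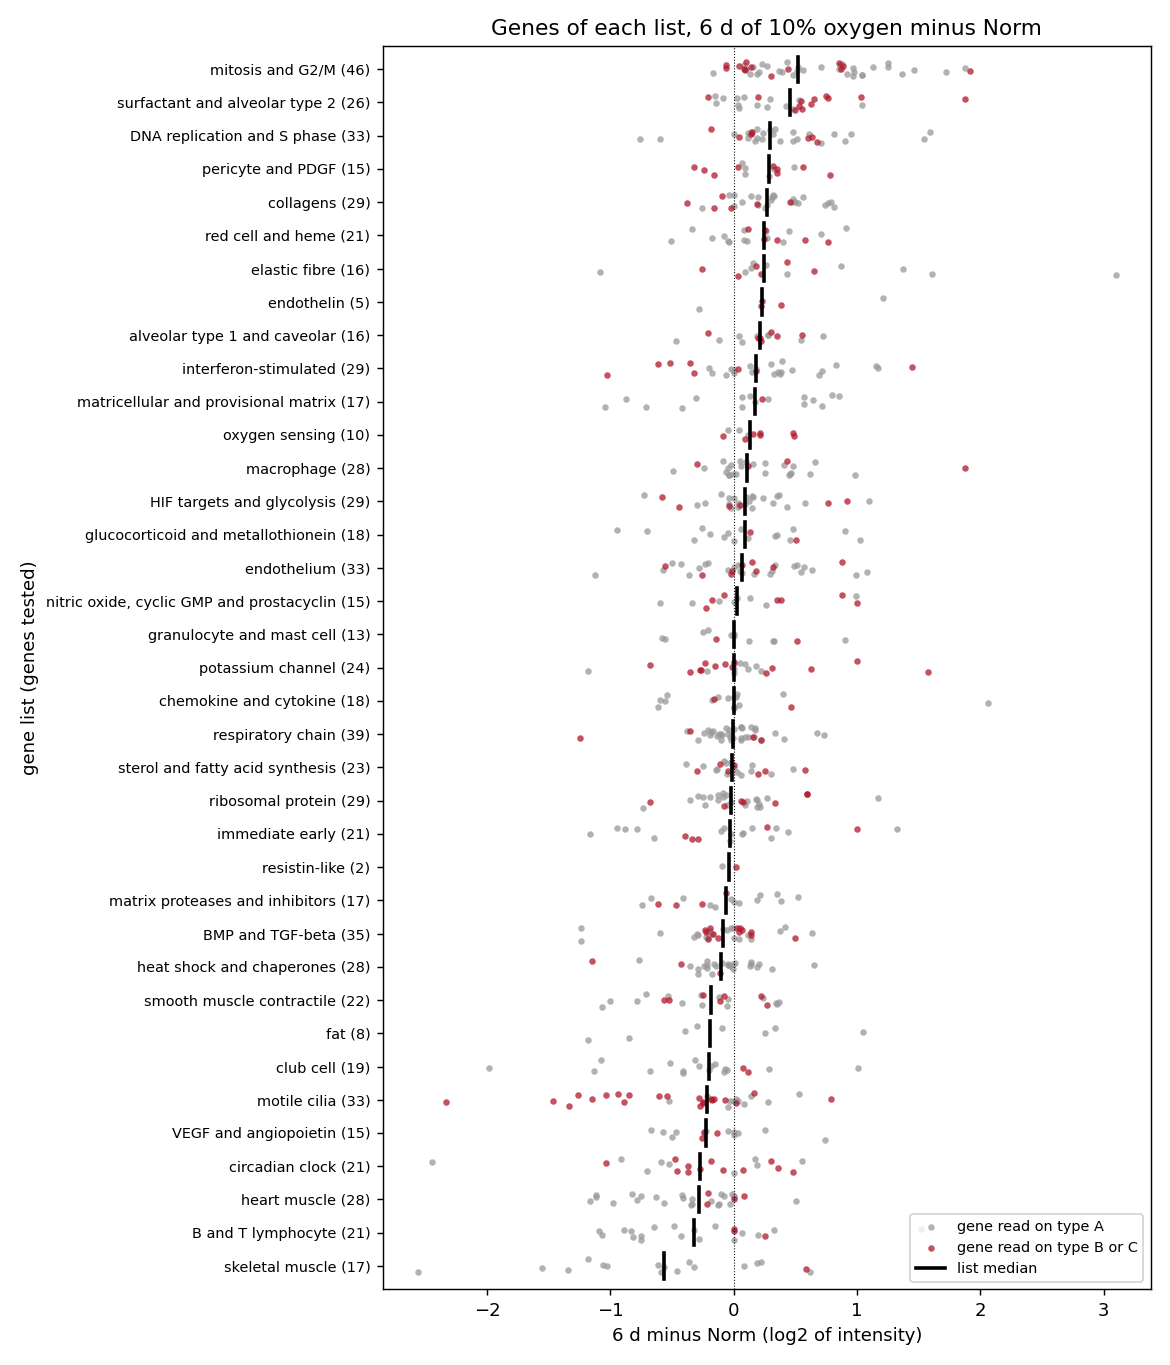
Difference of each tested gene (6 d minus Norm, log2) in 37 gene lists, ordered by the list median (black bar); grey points are genes read on type A, where Norm is 1 array, and red points genes read on B or C. The mitosis median of 0.52 rests mostly on grey points, while the red points carry the alveolar type 2 genes to the right and the cilia genes to the left.

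Against the other times in low oxygen, 6 d differed in a few probe sets that passed the test, and these comparisons share the 6 d arrays with the one above. Against 2 d, 16 probe sets passed (0.062%), 8 higher and 8 lower. At the unadjusted level 7.71% of genes were higher and 5.96% lower. Lyz1 rose from 2489 and 1140.4 at 2 d to 33033 and 29448 at 6 d (4.21 ± 0.36, limma adjusted p = 0.0147), with 12860.3 and 10212 at 4 d. Sftpa1, surfactant protein A, rose in a probe set read on B from 2255 and 2700.2 to 7447 and 6179 (1.46 ± 0.16), and its other probe sets differed by 0.50 and 0.39. Etv5 rose from 1442 and 1495 to 4821 and 5794 (1.85 ± 0.20). The alveolar type 2 list as a whole read higher in 22 of 26, 11 of them at the unadjusted level, and lower in 4, 1 of them at that level. That 1 was the defining gene Sftpc, which fell from 36691 and 42808 to 21894 and 10008 (-1.42 ± 0.54). Interferon-stimulated genes read higher in 24 of 29. One probe set of Timp2 rose by 1.63 ± 0.15, while its probe set on C differed by -0.47. One of Kpna4, a nuclear import factor, rose by 1.28 ± 0.16, while its other differed by -0.18. Mbnl2, a splicing regulator, rose by 1.86 ± 0.16 in 1 of its probe sets, Cpm, a carboxypeptidase, by 1.77 ± 0.21 (other probe set 1.42) and Fhl1, a LIM protein, by 1.24 ± 0.14 (other probe set -0.04). Mtm1, a phosphoinositide phosphatase, fell from 6092 and 4786 to 1305 and 1107 (-2.17 ± 0.23), and its other probe sets differed by -1.64, -0.36 and 0.46. The Mtm1 probe set that passed has a suffix for probes shared with related transcripts. Fut9, a fucosyltransferase, fell from 676 and 681 to 332 and 256 (-1.11 ± 0.13). Sftpa1, Mtm1, Mbnl2, Cpm and Fhl1 passed through a probe set that does not represent the gene in the lists, and were chosen after their values were seen. The 2 d arrays are those with the high 3' to 5' ratios, so RNA quality and time cannot be told apart in this comparison. The count depended on single samples: it was 0 without either 6 d sample, either 10 h sample, 2 d 1b or 4 d 1a, 3 without 2 d 1a or 4 d 1b, and 32 without Norm 1b.

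Against 4 d, 13 probe sets passed (0.0504%), 9 higher and 4 lower. At the unadjusted level 6.01% of genes were higher and 4.92% lower. Ntrk2, the BDNF receptor, rose from 554 and 407 to 5522 and 5855 (3.58 ± 0.20, limma adjusted p = 0.000599), but Norm was at 3194 and 4573. The other 3 probe sets of Ntrk2 differed by -0.01, 0.79 and 1.12 and did not pass, so Ntrk2 too was chosen after its values were seen. Ankrd37, a HIF target, rose from 323 and 238 to 2111 and 2270.0 (2.82 ± 0.22), with 1613 and 2753 in Norm. In both genes the 4 d arrays were low against every other group. Cspg4, the NG2 proteoglycan of pericytes, rose by 1.95 ± 0.24, the voltage-gated potassium channel Kcnc1 by 1.60 ± 0.17, the kinase Cdk19 by 2.49 ± 0.28 and beta-actin, Actb, by 2.93 ± 0.21 (other probe set 1.78). In these genes too the 4 d arrays were low against every other group. Cspg4 read 446 and 190 at 4 d, 1051 and 1163 in Norm and 1363 and 1457 at 6 d. Actb read 732 and 980 on the arrays labelled 4 d, 6054 and 6897 at 6 d and 13937 and 13008 at 2 d. For Cdk19, Actb and Kcnc1 both 6 d arrays also lay above Norm. Slc16a9, a carnitine transporter, fell in both of its probe sets, by 1.88 ± 0.22 and 1.5 ± 0.17 on the log2 scale. In both, the 4 d arrays lay above those of every other group. Ankrd63 fell from 1944 and 2005 to 32.2 and 34.3, where both 6 d arrays lie under the floor, so its difference of -3.30 ± 0.39 is set by the floor. As lists, the interferon-stimulated genes read higher in 22 of 29 and the type 1 cell genes in 14 of 16, while heart muscle genes read lower in 22 of 28. Against 2 d, the heart muscle genes read higher at 6 d in 19 of 28. Any call on A in the comparison with 4 d uses the array labelled 4 d 1a. The 3' to 5' ratios at 4 d lay lower than at 6 d, with overlapping ranges, and the part of RNA quality was not tested here. Without 4 d 1a 181 probe sets passed, without 4 d 1b 29, without either 6 d sample 1, without either 2 d sample 2 and without either 10 h sample 3.

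**Figure D5:**
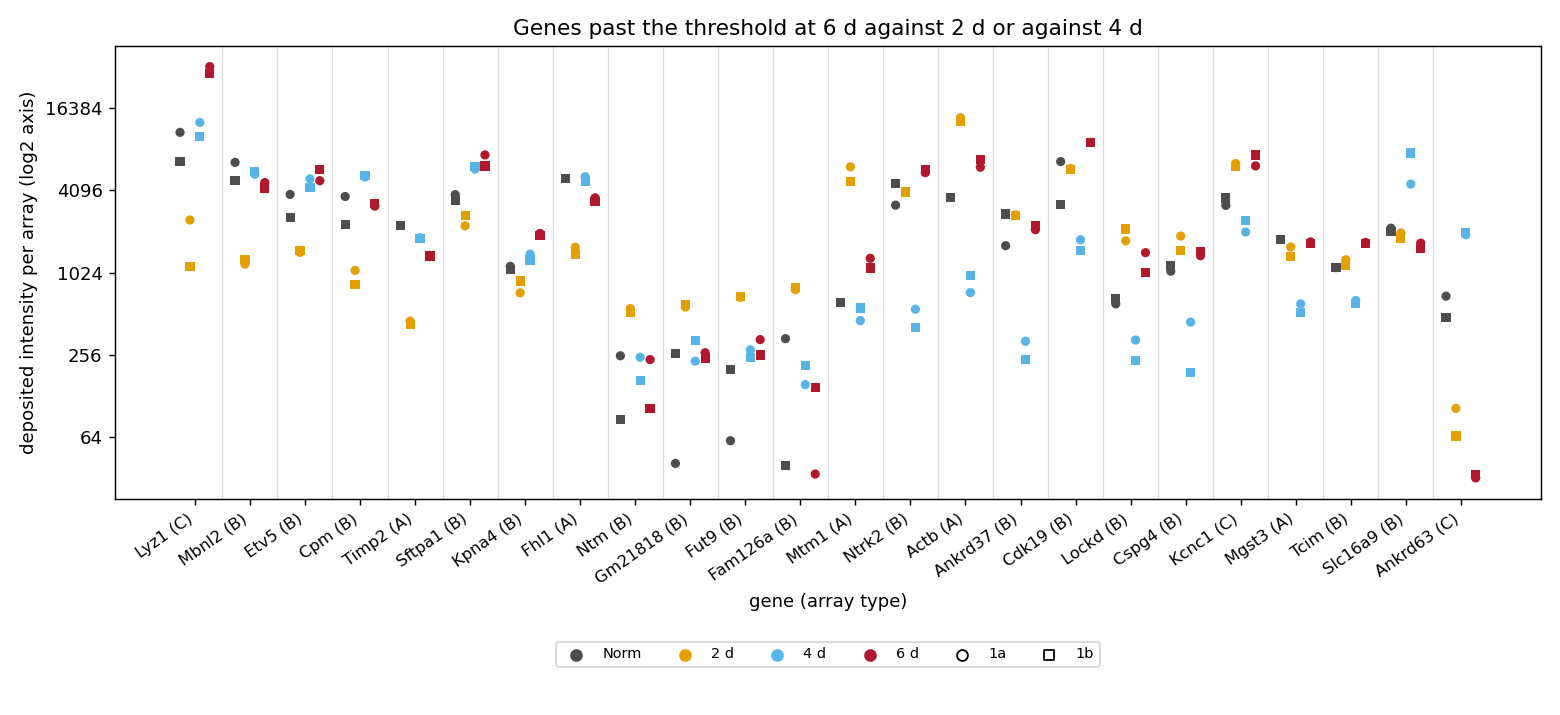
Deposited intensity on each array (log2 axis) of the named genes that passed at 6 d against 2 d (from Lyz1 to Mtm1) or against 4 d (from Ntrk2 to Ankrd63); colours mark Norm, 2 d, 4 d and 6 d, circles sample 1a and squares sample 1b. Most genes of the first set have their 2 d arrays apart from the other groups shown. The genes of the second have their 4 d arrays apart, below the rest except in Slc16a9 and Ankrd63.

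Of the genes listed for this disease model whatever their values, 22 were tested, and Ednra was too dim. Those not yet described follow. Tnc, tenascin C, read 206 on the array labelled Norm 1b, 925 and 317 on those labelled 4 d, and 454 and 332 at 6 d (0.72 ± 0.56, other probe set 0.03). Slc6a4, the serotonin transporter, read 347 on the array labelled Norm 1b, 631 and 746 on those labelled 4 d, and 738 and 379 at 6 d (0.61 ± 0.45). Hmox1, heme oxygenase, read 2245 on the array labelled Norm 1b, 1929.5 and 1654 on those labelled 4 d, and 2245 and 2141 at 6 d (-0.03 ± 0.19). For Tnc and Slc6a4 the 6 d arrays overlapped with the arrays labelled 4 d, and for Hmox1 with the one labelled Norm 1b. The Tnc value on the array labelled Norm 1b lies under the floor. None of the 22 passed.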

How the data were processed

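The authors deposited 1 table of intensities per array type. Which software made them is not given in the sources used here. Deposited intensities share a common level, with a trimmed mean between 800.165 and 800.436 on every array, and no further scaling was applied. Arrays were grouped by title. Values under the 40th percentile of an array type were raised to it, control probe sets were left out, and any probe set exceeding that floor on 2 or more arrays was fitted on the log2 scale with limma 3.58.1 (R 4.3.3) over all 5 groups, each array type on its own, with eBayes and a mean-variance trend. Adjustment was by Benjamini-Hochberg over the 3 types together at 0.05, two-sided. The fit was tested on simulated data. The number of arrays limits precision.

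Symbols came from the platform annotation: 10855, 10603 and 7739 probe sets of A, B and C had 1 symbol, 396, 178 and 150 several and 1237, 1696 and 4045 none. A gene was represented by 1 probe set, plain suffixes first and then the brightest. Named genes were the 10 with the smallest p against Norm, up to 5 in each direction that passed against 2 d and 4 d, up to 5 with the smallest p in each list, genes of this disease model and the cell type markers. These genes and lists were chosen with earlier results of these data known. Alternatives changed the floor, filter, trend, adjustment, samples and replicate block. Motifs were searched in RefSeq promoter windows (GRCm38.p6).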

Additional observations from a re-analysis of the deposited data

Results flagged for a closer look

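Each result here was marked because the 6 d group differed from another time in low oxygen by the limma test. Against 2 d, 16 probe sets passed. Among the named genes, the differences (6 d minus 2 d, log2) were 4.21 for Lyz1, 1.85 for Etv5, 1.63 for Timp2 and 1.28 for Kpna4, and -1.11 for Fut9 and -0.98 for Gm21818. Both 6 d arrays of Gm21818 lay at the floor. Against 4 d, 13 probe sets passed. The differences (6 d minus 4 d) were 2.93 for Actb, 2.82 for Ankrd37, 2.49 for Cdk19, 1.95 for Cspg4 and 1.60 for Kcnc1, and -3.30 for Ankrd63 and -1.88 for Slc16a9. The probe sets of Lyz1, Actb and Gm21818 carry a suffix for probes shared among related transcripts, and that of Kcnc1 has no plain suffix either. With 2 samples a group, no sample could be tested as an outlier.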

How the results depend on the processing

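No probe set passed at 6 d against Norm, nor with the replicate block (0). The count was 3 with 5 arrays above the floor (Afdn, Emp2 and Srrm2), 63 without a filter, of which 48 had a group at the floor, and 79 with only the 2 groups compared, of which 70 were on A with its single Norm array. It ran from 0 to 2 when 1 sample was left out. Against 2 d, 16 became 91 with adjustment within an array type, 7 with the floor at the 20th percentile, 100 without a filter, 0 without the trend, 4 with only the 2 groups compared and 2 with the replicate block, and ran from 0 to 32 when 1 sample was left out. Against 4 d, 13 became 48 with 5 arrays above the floor, 33 with adjustment within an array type, 23 on B and C alone, 4 with only the 2 groups compared and 4 with the replicate block, and ran from 1 to 181 when 1 sample was left out. In alternatives chosen after seeing the data, it was 3 with the 2 d arrays left out and 203 with the A arrays labelled Norm 1b and 4 d 1a left out. The cause was not tested. The letters 1a and 1b do not pair the samples: 1 of 26 correlations of same-lettered deviations was over 0.1, from -0.15 to 0.13. A sample left alone in its group was assumed to vary like the others, and without Norm 1b no Norm array is left on A. Of 204 named genes, 11 changed sign against Norm in at least 1 alternative, none of them past the threshold there; those described in the report are Acvrl1, Ankrd37, Epas1, Hif1a, Retnla and Tgfb1. The list medians kept their sign in every setting for mitosis (0.04 to 0.88), replication (0.15 to 0.37), alveolar type 2 (0.36 to 0.59), elastic fibre (0.11 to 0.32) and cilia (-0.50 to -0.14), and not, among others, for collagens, club cell, clock, endothelin, endothelium, BMP and TGF-beta, skeletal muscle, lymphocyte, macrophage, interferon-stimulated or HIF target genes.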

Other observations

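Of 21 immediate early genes 12 read lower at 6 d than in Norm, 4 of them at the unadjusted level, and 9 higher, with a median of -0.03 (-0.06 on B and C alone, but 0.07 without the sample Norm 1b). On A, both 6 d arrays lay above the arrays labelled Norm 1b, 4 d 1a and 4 d 1b in 6 of 16 genes (37.5% against 14.0% of all genes on A) and below them in 2. Klf2, a factor induced in endothelium by flow, read 1509.7 on the array labelled Norm 1b, 831 and 1343 on those labelled 4 d, and 808 and 561 at 6 d (-1.17 ± 0.36). Dusp1, a phosphatase of MAP kinases, read 8998 on the array labelled Norm 1b, 4685 and 8219.8 on those labelled 4 d, and 4183 and 5225 at 6 d (-0.94 ± 0.32, other probe set 0.16). Egr1, a factor of the early growth response, read 1179 on the array labelled Norm 1b, 1123 and 1352 on those labelled 4 d, and 768 and 608 at 6 d (-0.79 ± 0.30). For Klf2 and Egr1 the 6 d arrays lay below all 3 others, and for Dusp1 they overlapped with the one labelled 4 d 1a. Jund, of the AP-1 family, went the other way at 6612 on the array labelled Norm 1b, 8997 and 6166 on those labelled 4 d, and 19089 and 14318 at 6 d (1.32 ± 0.30), with 27084 and 28749.9 at 2 d. Of 28 heat shock and chaperone genes 20 read lower with a median of -0.10 (-0.16 on B and C alone). Hspa1b, an inducible HSP70, read 613 on the array labelled Norm 1b, 575 and 559 on those labelled 4 d, and 369 and 352 at 6 d (-0.77 ± 0.27), against 2457 and 1997 at 10 h.

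Respiratory chain genes read higher in 18 and lower in 21 of 39 (median -0.01), ribosomal protein genes higher in 14 and lower in 15 of 29 (median -0.02, but 0.21 on B and C alone), and sterol and fatty acid synthesis genes higher in 10 and lower in 12 of 23 (median -0.02). Glucocorticoid and metallothionein genes read higher in 10 of 18 (median 0.09). Granulocyte and mast cell genes read higher in 5 and lower in 6 of 13, and chemokine and cytokine genes higher in 6 and lower in 8 of 18. Lcn2, a lipocalin of neutrophils and stressed epithelium, read 1039 on the array labelled Norm 1b, 1253 and 711 on those labelled 4 d, and 1844 and 2054 at 6 d (0.91 ± 0.37, other probe set 0.23), above all 3 others. The other neutrophil gene S100a8 read 1674 on the array labelled Norm 1b, 1179.8 and 1326 on those labelled 4 d, and 1195 and 1048 at 6 d (-0.58 ± 0.20). Fat cell genes read higher in 3 and lower in 5 of 8 (median -0.20, but 0.43 for the 1 gene on B and C), and the resistin-like genes higher in 1 and lower in 1 of 2 (median -0.04). Car3, the carbonic anhydrase of fat and muscle, read 1624 on the array labelled Norm 1b, 1032 and 1155 on those labelled 4 d, and 739 and 694 at 6 d (-1.18 ± 0.27).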
